A study of Bos taurus with 8 samples.

Results

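Interferon-stimulated genes were examined in granulosa cells, the follicle cells that surround the oocyte, from dominant follicles of cattle (Bos taurus). A list of 45 genes was matched by symbol to the annotation of a bovine oligonucleotide array, and each gene was represented by its probe of highest mean intensity. Of the 45 genes, 38 had a probe, among 15216 named genes on the array, IFI27 and DHX58 under their older names ISG12(A) and LGP2. DDX58, OAS1X, OAS1Y, IFIT1, IFI44L, BST2 and GBP2 were matched to no probe by symbol and were not analysed here. The 38 genes comprised 4 interferon receptor chains, 6 signalling and transcription factors, 5 sensors or effectors of double-stranded RNA, 17 other antiviral effectors and 6 genes of the interferon gamma class.

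Interferons are secreted proteins that bind receptor pairs at the cell surface. Type I interferons signal through IFNAR1 and IFNAR2 and the kinases JAK1 and TYK2 to STAT2 and IRF9, which switch on antiviral genes, while interferon gamma signals through IFNGR1 and IFNGR2 and mainly raises guanylate-binding proteins, chemokines and antigen presentation. In cattle the type I family includes interferon tau, the signal by which the conceptus announces pregnancy to its mother, so these genes are well known in the ruminant reproductive tract.

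The study compared 4 follicles in the growing phase with 4 in the plateau phase, all over 9 mm in diameter. They were taken from slaughterhouse ovaries of Holstein dairy cattle whose cycle stage and reproductive status, pregnancy included, were unknown. Stage was assigned by the DNA content of the granulosa cells in flow cytometry, so the groups are classes of follicles and not time points of 1 animal, and the sources give no treatment or genetic change for either. Amplified RNA of a growing and a plateau follicle was hybridised together on each of 8 arrays, and the 4 pairs of follicles were repeated with the dyes exchanged, giving 16 readings, 2 for each follicle. A level is the log2 normalised intensity, averaged over both readings of a follicle. A log2 ratio above 0 means a higher level in plateau follicles, and a log2 difference of 1 is 2-fold. The sources used here do not say which follicles came from the same animal.

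The granulosa identity of the samples was checked with 13 marker genes, all above background on at least 8 of 16 readings, but their levels were uneven. CYP19A1, the aromatase that makes oestradiol, was 11.92, 8.15, 15.78 and 14.81 in growing follicles 1 to 4 and 15.41, 8.06, 8.80 and 15.84 in plateau follicles 1 to 4. It was therefore low in growing follicle 2 and in plateau follicles 2 and 3. Plateau follicle 3 stood apart from the others, with the lowest summed level of the granulosa markers (45208 against 119885 to 375119 elsewhere) and the highest summed level of 11 smooth muscle and fibroblast markers (211005 against 9287 to 21172 elsewhere). RNA came from all the cells collected, so fewer cells of a type and less RNA per cell cannot be told apart.

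Of the 38 interferon genes, 32 were above background on at least 8 of 16 readings and 18 on all 16. Background was set on each array and dye at the mean plus 2 SD of the negative control spots. GBP4, a guanylate-binding protein, was above it on none of the 16 readings. OAS2, ISG20, CXCL9, IFI44 and RSAD2 were above it on 2 to 5 readings, so these genes had at most a bound on their level in most follicles and no fold is given for them. The 11931 named genes above background on at least 8 readings serve as the comparison for the 32 genes.

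No interferon gene passed the criteria used for a difference between the stages. The study's limits for a changed gene were read here as a fold above 1.5, a p below 0.05 before adjustment and a log2 intensity that averaged 7 or more. This criterion was met by 0 of the 38 genes, against 1.03% of all named genes (157 of 15216). An unadjusted p under 0.05 in limma was reached by 0 of the 38 genes, against 3.4% of named genes. With Benjamini-Hochberg adjustment in limma over 43794 probes, no probe passed 0.05, interferon genes included, while 1152 probes (2.63%) had an unadjusted p under 0.05. The 4 follicle pairs limit the precision of these ratios.

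Across all probes the criterion was met by 297 (0.678%), 131 higher and 166 lower in plateau follicles, and by 673 when follicle pairs entered as a random block over the 8 arrays. Under median centring in place of loess and quantile normalisation, the split became 261 higher and 70 lower. STAT2 then met the criterion, while in the blocked fit 0 interferon genes did. Slide and dye orientation coincided, and every pair was on both slides. On the slide with plateau follicles in Cy5 the criterion was met by 1049 probes, STAT2 and PARP14 among them, and on the other slide by 851 probes and none of the 38 genes.

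The log2 ratios of the 38 genes leaned to plateau follicles, but by less than the spread between pairs. In all, 26 were above 0 and 12 below, with a median of 0.09, whereas 51.1% of named genes were above 0 with a median of 0.00. The lowest ratio was that of IRF1 (-0.20) and the highest that of IRF7 (0.83). The median over the 38 genes had an SD of 0.14 between pairs, and it was 0.17 without pair 1, 0.04 without pair 2, 0.017 without pair 3 and 0.12 without pair 4. Within single pairs the median did not keep its sign. Over the 32 genes above background it was -0.12, 0.25, 0.21 and -0.05 in pairs 1 to 4. The levels of the growing and plateau follicles overlapped in every one of the 38 genes, while 1.52% of named genes (231) had stages that did not overlap. USP18, which removes ISG15 from its targets and dampens type I interferon signalling, was the only one of the 38 genes higher in plateau follicles in all 4 pairs (4.8% of named genes were), and none was lower in all 4 (4.27% of named genes).

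**Figure D1:**
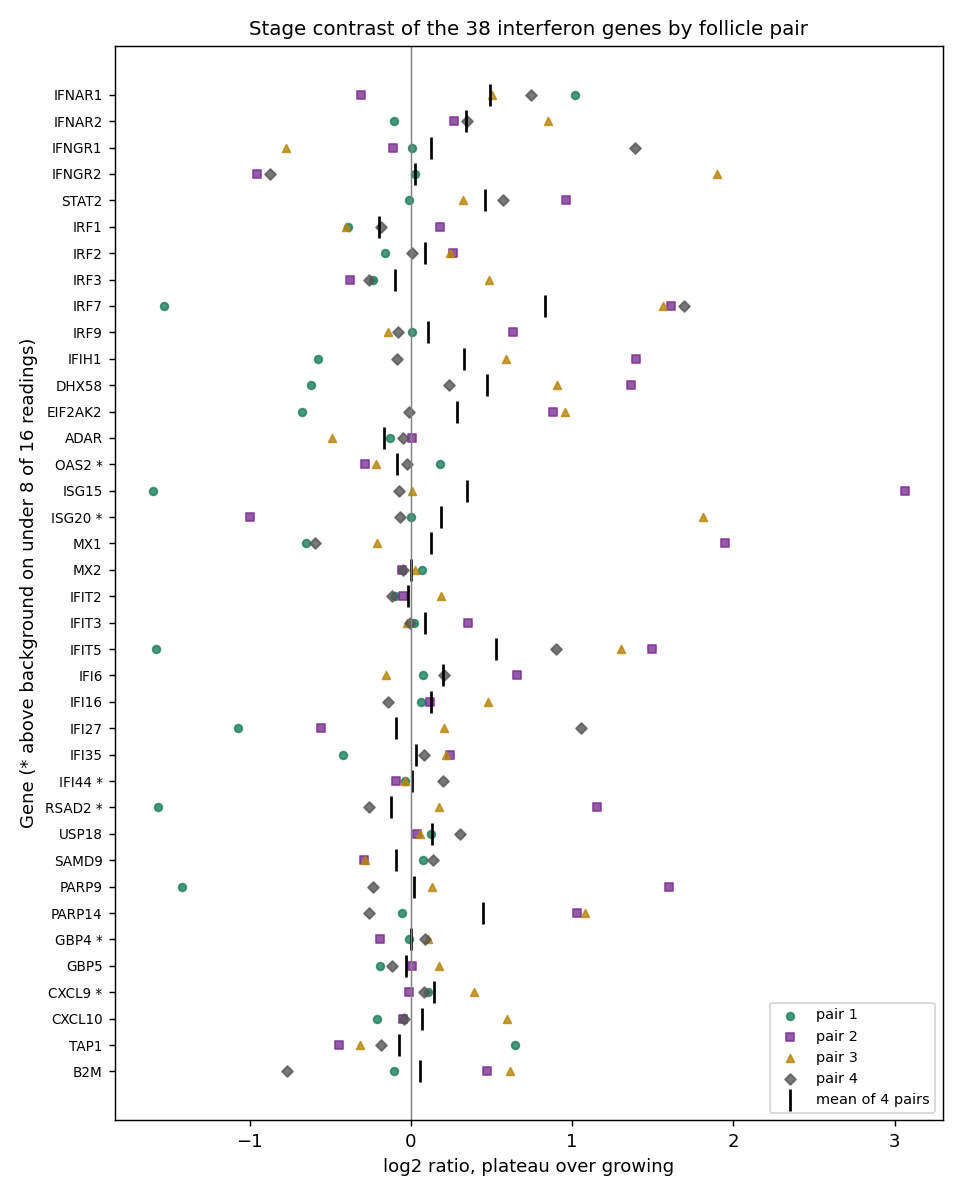
Log2 ratio of plateau over growing follicles (x axis) for each of the 38 interferon genes (y axis), with 1 point for each of the 4 follicle pairs and a black bar at their mean. The points of most genes lie on both sides of 0, and those of ISG15 run from -1.60 in pair 1 to 3.06 in pair 2.

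The contrast depended on which pair was left out. Without pair 1, the criterion was met by STAT2, IRF7, DHX58 and IFIT5, all higher in plateau follicles, and by 4.93% of named genes. Their log2 ratios were then 0.62, 1.62, 0.84 and 1.23, with an adjusted p in limma between 0.69 and 0.78. Without pair 2, it was met by IFNAR1 alone (0.75, adjusted p = 0.998 in limma) and by 2.75% of named genes, and without pair 3 or pair 4 by none of the 38 genes (1.57% and 0.979% of named genes).

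Each of the 4 receptor chains had a mean ratio above 0, although that of IFNGR2 was -0.059 on the slide with plateau follicles in Cy5, and all were above background on at least 14 readings. IFNAR1, a chain of the type I interferon receptor, measured 9.98, 11.85, 10.42 and 10.28 in growing follicles 1 to 4 and 10.997, 11.54, 10.92 and 11.02 in plateau follicles 1 to 4. The plateau follicles were close together except plateau follicle 2, and growing follicle 2 exceeded all of them, so the stages overlapped. The log2 ratio was 0.49 ± 0.57 (SD, n = 4 pairs), higher in plateau follicles in 3 of 4 pairs, with an adjusted p of 0.9999 in limma. The other probes of IFNAR1 had ratios of 0.23 and -0.14, so the probes disagreed in sign.

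IFNAR2, the other chain of that receptor, ran from 7.59 to 8.29 in growing follicles and from 7.94 to 8.57 in plateau follicles. Its mean level of 8.02 was close to background, and growing follicles 2 and 4 each had only 1 of 2 readings above it. Its log2 ratio was 0.34 ± 0.39 (SD, n = 4), above 0 in 3 of 4 pairs. The highest follicle of each stage lay in different pairs, growing follicle 1 and plateau follicle 3, and the stages overlapped.

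IFNGR1, the chain that binds interferon gamma, was at 13.69, 13.52, 13.74 and 12.79 in growing follicles 1 to 4 and at 13.69, 13.41, 12.97 and 14.18 in plateau follicles 1 to 4. Growing follicle 4 was the lowest and plateau follicle 4 the highest, and the log2 ratio was 0.13 ± 0.91 (SD, n = 4). The mean ratio without that pair was -0.29.

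IFNGR2, its partner chain, was at 11.72, 12.98, 11.64 and 11.65 in growing follicles 1 to 4 and at 11.74, 12.02, 13.54 and 10.78 in plateau follicles 1 to 4. Growing follicle 2 and plateau follicle 3 were high and plateau follicle 4 was the lowest of all. The ratio of 0.02 ± 1.32 (SD, n = 4) was small against this spread, and 7.92% of named genes had an SD over the 8 follicles at least as large as the 0.86 of IFNGR2. In the RefSeq gene order of the ARS-UCD2.0 assembly, IFNAR1 and IFNGR2 are direct neighbours. Both were highest among the growing follicles in follicle 2, but not in the same plateau follicle.

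Among the signalling and transcription factors, STAT2 and IRF7 had the largest ratios. STAT2, a subunit of the complex that carries the type I interferon signal to the nucleus, measured 10.44, 10.16, 10.40 and 10.40 in growing follicles 1 to 4 and 10.42, 11.13, 10.72 and 10.97 in plateau follicles 1 to 4. Plateau follicles 2 to 4 were above every growing follicle, and plateau follicle 1 lay within the growing range. The log2 ratio was 0.46 ± 0.41 (SD, n = 4), and its unadjusted p of 0.051 in limma was the lowest of the 38 genes (adjusted p = 0.9999).

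IRF7, a transcription factor that amplifies type I interferon production, was at 11.71, 9.90, 10.14 and 9.42 in growing follicles 1 to 4 and at 10.18, 11.51, 11.71 and 11.11 in plateau follicles 1 to 4. Growing follicle 1 was as high as the highest plateau follicle, and plateau follicle 1 lay beside growing follicle 3, far below the other plateau follicles. In pairs 2 to 4 the log2 ratios were 1.61, 1.56 and 1.69, whereas pair 1 gave -1.53. The mean of 0.83 ± 1.58 (SD, n = 4) therefore did not exceed the spread between pairs (adjusted p = 0.9999 in limma).

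The remaining factors varied less. IRF1 and IRF2, which act at interferon response elements, had log2 ratios of -0.20 ± 0.27 and 0.09 ± 0.20 (SD, n = 4). The mean level of IRF2, 8.07, was close to background. IRF3, the factor that the RNA sensors activate, gave -0.10 ± 0.39. IRF9, the DNA-binding partner of STAT2, gave 0.11 ± 0.36. STAT2 had 56.1% of its variance over the 8 follicles between the stages, the highest share among the 32 genes above background, for which the median was 5.25% (5.68% over the 11931 named genes).

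The sensors of double-stranded RNA varied widely between follicles. DHX58, the RIG-I-like helicase LGP2 that modulates the other sensors, measured 12.08, 11.42, 10.68 and 9.61 in growing follicles 1 to 4 and 11.46, 12.79, 11.59 and 9.84 in plateau follicles 1 to 4. Plateau follicle 2 and growing follicle 1 were the highest and both follicles of pair 4 the lowest, a span of 9.07-fold that ran across both stages. The log2 ratio was 0.47 ± 0.86 (SD, n = 4), above 0 in 3 of 4 pairs (adjusted p = 0.9999 in limma).

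IFIH1 and EIF2AK2 were looked at after their values were seen. IFIH1, the sensor MDA5 of long double-stranded RNA, was at 8.73, 7.96, 7.80 and 7.94 in growing follicles 1 to 4 and at 8.15, 9.36, 8.39 and 7.85 in plateau follicles 1 to 4. EIF2AK2, the kinase PKR that halts translation on binding double-stranded RNA, ran from 9.56 to 10.28 in growing follicles and from 9.05 to 11.16 in plateau follicles. Plateau follicle 2 was the highest in both genes, and the stages overlapped. ADAR, which edits adenosine in double-stranded RNA, had an SD of only 0.21 over the 8 follicles and a ratio of -0.16 ± 0.22 (SD, n = 4). Its mean level of 8.12 was close to background.

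**Figure D2:**
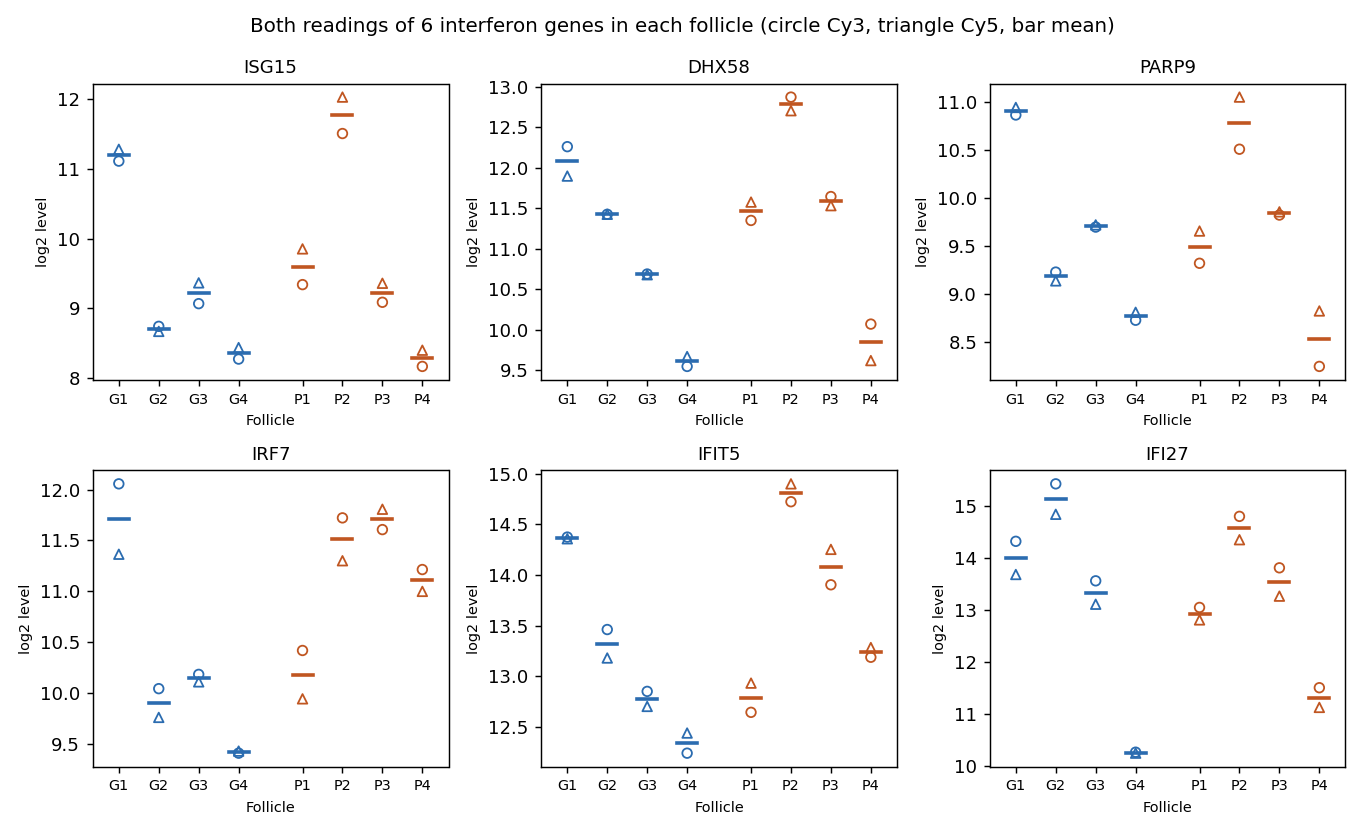
Log2 level (y axis) of 6 interferon genes in growing follicles G1 to G4 (blue) and plateau follicles P1 to P4 (orange), with the Cy3 reading as a circle, the Cy5 reading as a triangle and their mean as a bar. G1 and P2 are the highest for ISG15, DHX58, PARP9 and IFIT5, and G4 and P4 are the lowest for ISG15, DHX58, PARP9 and IFI27.

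Of the antiviral effectors, ISG15, a ubiquitin-like protein that is joined to other proteins after interferon treatment, had the widest swings between pairs. It was at 11.20, 8.71, 9.22 and 8.36 in growing follicles 1 to 4 and at 9.60, 11.77, 9.22 and 8.28 in plateau follicles 1 to 4. Growing follicle 1 and plateau follicle 2 stood above the other 6 follicles, 1 from each stage, and the span from lowest to highest was 11.2-fold. The SD over the 8 follicles was 1.29, reached by 2.54% of named genes.

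Since the 2 high follicles belonged to different pairs, the log2 ratio of ISG15 was -1.60 in pair 1, 3.06 in pair 2, 0.01 in pair 3 and -0.07 in pair 4. The mean was 0.35 ± 1.95 (SD, n = 4; adjusted p = 0.9999 in limma), and it became -0.55 without pair 2 and 0.999 without pair 1. Its other probe had the same pair of follicles on top, at 9.64 in growing follicle 1 and 10.13 in plateau follicle 2 against 7.96 to 8.79 in the rest.

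PARP9, a member of the ADP-ribosyltransferase family, was at 10.91, 9.18, 9.71 and 8.77 in growing follicles 1 to 4 and at 9.49, 10.78, 9.84 and 8.53 in plateau follicles 1 to 4. The order again put growing follicle 1 and plateau follicle 2 on top and both follicles of pair 4 at the bottom. Its ratio was 0.02 ± 1.24 (SD, n = 4), and -0.18 on the slide with growing follicles in Cy5. PARP14, an ADP-ribosyltransferase whose gene lies close to PARP9 in the RefSeq order, ran from 7.92 to 8.42 in growing follicles and from 7.91 to 9.13 in plateau follicles, where follicles 2 and 3 were above every growing follicle. Its ratio was 0.45 ± 0.71 (SD, n = 4; adjusted p = 0.9999 in limma).

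IFIT5, which binds RNA ends, was at 14.37, 13.32, 12.78 and 12.34 in growing follicles 1 to 4 and at 12.79, 14.81, 14.08 and 13.24 in plateau follicles 1 to 4. Plateau follicle 2 and growing follicle 1 were again the highest. The ratios were above 0 in pairs 2 to 4 and -1.58 in pair 1, with a mean of 0.53 ± 1.43 (SD, n = 4; adjusted p = 0.9999 in limma). IFIT2 and IFIT3, relatives of IFIT5 and direct neighbours of each other in the RefSeq order, had SDs of only 0.15 and 0.10 over the 8 follicles. Both were close to background, at mean levels of 7.88 and 8.05 against 13.46 for IFIT5. Their small SDs therefore need not mean steady levels.

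IFI27, a small protein strongly raised by type I interferon in many tissues, had the largest spread of the 38 genes. It was at 13.998, 15.13, 13.33 and 10.26 in growing follicles 1 to 4 and at 12.93, 14.57, 13.54 and 11.32 in plateau follicles 1 to 4. Both follicles of pair 4 were far below the rest, and the span was 29.2-fold. The SD was 1.63, reached by 1.31% of named genes, while the ratio was -0.09 ± 0.93 (SD, n = 4), or 0.075 under median centring. The other probe of IFI27 also had its lowest values, 8.16 and 8.24, in the follicles of pair 4.

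MX1 and MX2, named after their values were seen, are neighbouring genes for dynamin-like GTPases that block viruses. MX1 was at 9.37, 8.17, 8.99 and 8.48 in growing follicles 1 to 4 and at 8.72, 10.12, 8.78 and 7.89 in plateau follicles 1 to 4, again with plateau follicle 2 and growing follicle 1 on top. MX2 had an SD of 0.05 over the 8 follicles, and 99.9% of named genes had an SD at least as large. Its probe was above background on all 16 readings. The 2 readings of a follicle lay a median of 0.08 from their mean in MX2, so its small SD need not mean a steady level. The SD of MX1 was 0.70, and the mean levels of MX2 and MX1 were 8.26 and 8.82.

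USP18 ran from 7.75 to 8.20 in growing follicles and from 8.01 to 8.24 in plateau follicles, a narrow range close to background that overlapped between stages. Its log2 ratio was 0.13 ± 0.12 (SD, n = 4), with an unadjusted p of 0.203 in limma, and its other probe was higher in plateau follicles in 3 of 4 pairs. The other effectors above background, IFI6, IFI16, IFI35 and SAMD9, had ratios between -0.09 and 0.20.

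In the interferon gamma class, B2M, the light chain of class I histocompatibility molecules, was at 13.73, 13.46, 12.73 and 12.45 in growing follicles 1 to 4 and at 13.62, 13.93, 13.35 and 11.68 in plateau follicles 1 to 4. The follicles of pair 4 were the lowest of their stages, and the ratio was 0.05 ± 0.63 (SD, n = 4). The other probe of B2M, above background on all 16 readings, had an SD of 0.18. Its highest follicles were plateau follicle 2 (8.76) and growing follicle 1 (8.55). Its lowest were plateau follicle 3 (8.18) and growing follicle 2 (8.24), not those of pair 4. GBP5, a guanylate-binding protein, CXCL10, a chemokine that draws T cells, and TAP1, a peptide transporter of antigen presentation, had ratios of -0.03, 0.07 and -0.07. GBP5 was nearly flat, with an SD of 0.10, but its mean level of 7.95 was close to background.

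**Figure D3:**
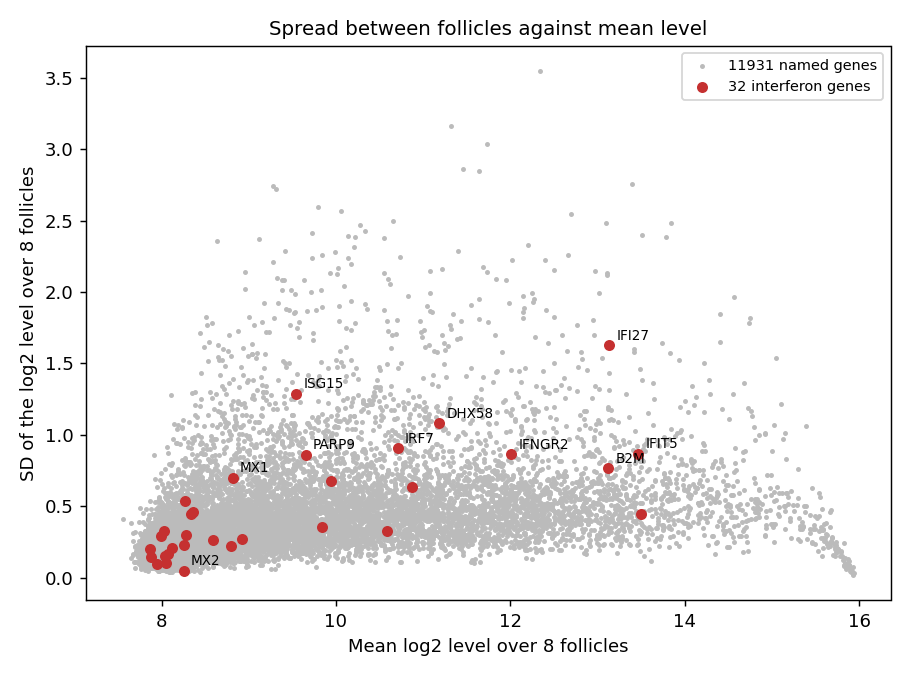
SD of the log2 level over the 8 follicles (y axis) against the mean log2 level (x axis) for 11931 named genes (grey) and the 32 interferon genes above background (red). IFI27 (SD 1.63), ISG15 (1.29) and DHX58 (1.08) lie high in the cloud and MX2 (0.05) at its lower edge.

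The median SD of the 32 genes over the 8 follicles was 0.34 (0.05 to 1.63), against 0.33 for the 11931 named genes. It was 0.40 against 0.37 on Cy3 readings alone and 0.32 against 0.34 on Cy5 readings alone. An SD above 0.5 was found in 12 of the 32 genes (37.5%, against 27.1% of named genes), namely IFNAR1, IFNGR2, IRF7, IFIH1, DHX58, EIF2AK2, ISG15, MX1, IFIT5, IFI27, PARP9 and B2M. For comparison, the 2 readings of a follicle lay a median of 0.09 from their mean in these genes, with gene medians from 0.02 to 0.22.

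Some of the 32 genes shared their highest or lowest follicles. Plateau follicle 2 had the highest level in 13 of the 32 genes (40.6%, against 13.8% of named genes) and growing follicle 1 in 5 (15.6%, against 11.6%). These 2 follicles were together the highest in 8 genes (25%, against 8.84% of named genes), IFIH1, DHX58, ISG15, MX1, IFIT5, IFI35, PARP9 and B2M. Growing follicle 4 was the lowest in 9 genes (28.1%, against 10.01%) and plateau follicle 4 in 8 (25%, against 12.3%). Both together were the lowest in 8 genes (25%, against 4.15%), IRF9, DHX58, ISG15, IFI6, IFI27, SAMD9, PARP9 and B2M. Growing follicle 4 and plateau follicle 4 were hybridised together as pair 4, so an effect of the follicles and one of their shared arrays cannot be told apart. For B2M the low values in pair 4 were seen only with its brightest probe. These patterns were noticed in the data and are given without a test.

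**Figure D4:**
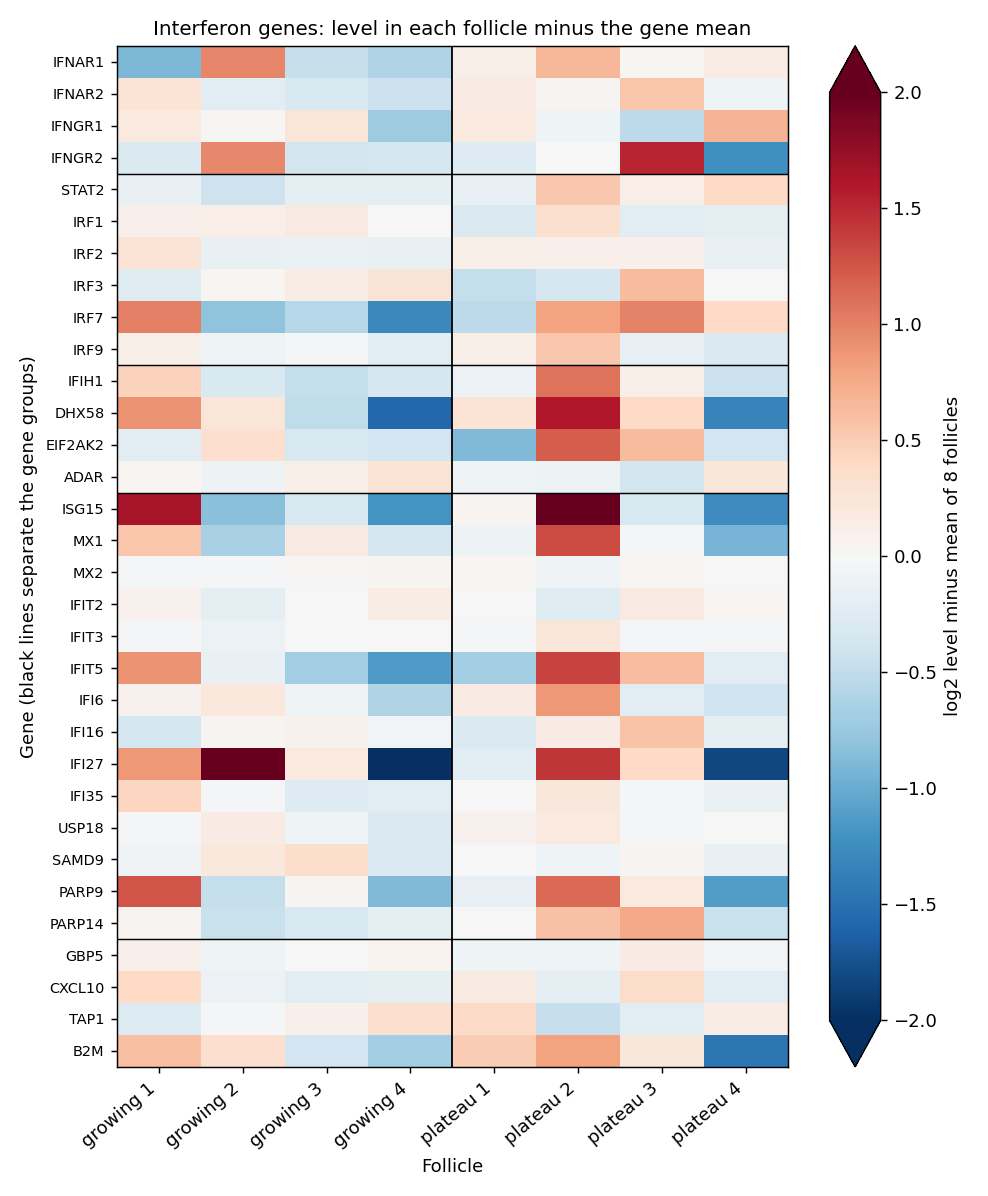
Log2 level in each follicle minus the gene's mean over the 8 follicles (colour) for the 32 interferon genes above background (rows, in their gene groups), with growing follicles left and plateau follicles right of the vertical line. Red cells gather in growing 1 and plateau 2 and blue cells in growing 4 and plateau 4 among the sensors and effectors.

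The sensors and effectors were also averaged. Their 18 members above background had a mean level, after centring each gene, of 0.36, -0.01, -0.11 and -0.55 in growing follicles 1 to 4 and of -0.11, 0.73, 0.16 and -0.48 in plateau follicles 1 to 4. Each stage thus held a high and a low follicle, and the levels of the stages overlapped. The low follicles were those of pair 4, which shared their arrays.

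Correlation over the 8 follicles is given as a description, since all genes shared the same arrays. The median Pearson r over the 153 gene pairs of these 18 members was 0.32, and 40.5% of the pairs were above 0.5. Over the 496 pairs of the 32 genes the median was 0.21, and over all pairs of the 11931 named genes it was 0.00, with 12.7% above 0.5. Without growing follicle 1 and plateau follicle 2 the median of the 18 members was 0.27, without the follicles of pair 4 it was 0.21, and without plateau follicle 3 it was 0.38.

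The signs of the ratios differed between pairs. Growing follicle 1 was in pair 1 and plateau follicle 2 in pair 2. In pair 1, 11 of the 32 genes (34.4%) were higher in the plateau follicle, against 54.8% of named genes, and in pair 2 there were 22 (68.8%), against 50.4%. In pair 3, which held neither of these follicles, there were 23 (71.9%), against 49.3%. In pair 4 there were 13 (40.6%), against 48.2%. Below 0 in pair 1 and above 0 in pair 2 were 17 of the 32 genes (53.1%), against 28.5% of named genes.

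**Figure D5:**
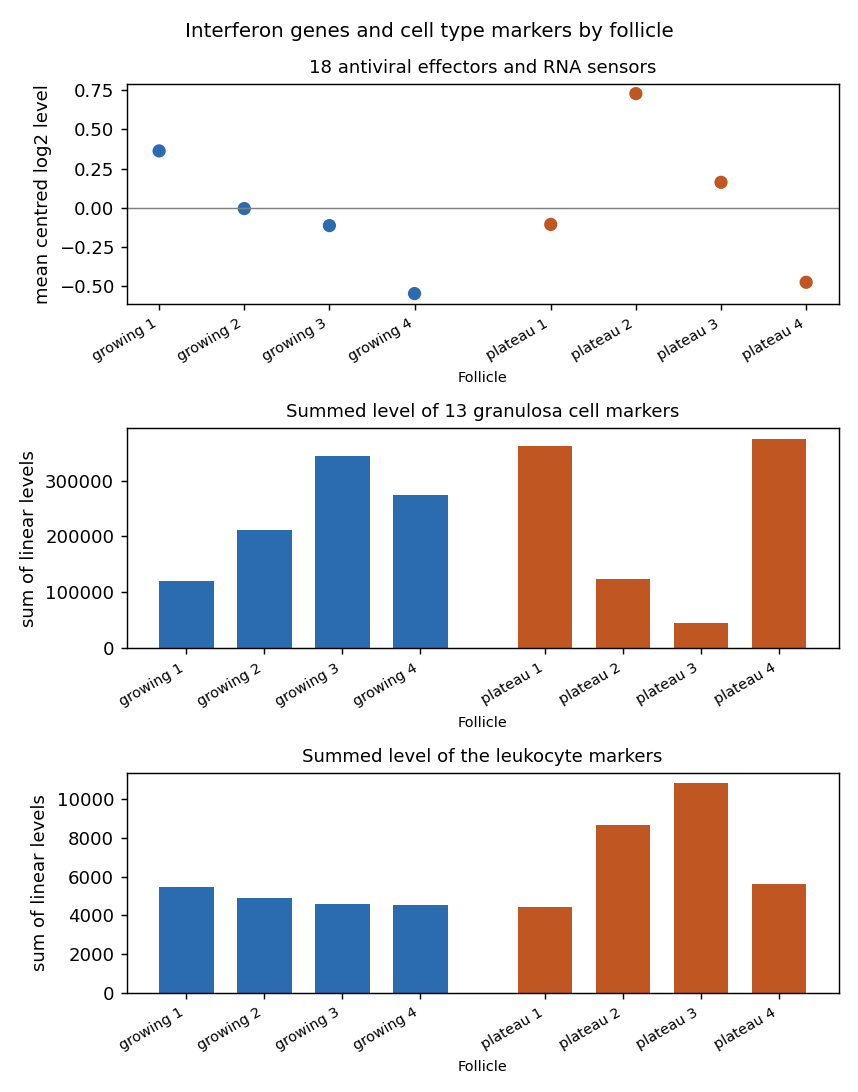
Mean centred log2 level of 18 antiviral effectors and RNA sensors (top), and summed linear levels of 13 granulosa cell markers (middle) and 20 leukocyte markers (bottom), in each growing (blue) and plateau (orange) follicle. The follicles with the highest interferon gene mean, plateau 2 (0.73) and growing 1 (0.36), have granulosa marker sums of 123971 and 119885.

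Some cell type markers moved with some of these levels. The summed granulosa marker level was 119885, 210772, 344622 and 274431 in growing follicles 1 to 4 and 362398, 123971, 45208 and 375119 in plateau follicles 1 to 4. It was thus lowest in the 3 follicles with the highest mean of the sensors and effectors, plateau follicles 2 and 3 and growing follicle 1. The sum of linear levels weights the brightest markers most, and not every marker followed it. FOXL2 was highest in growing follicle 1 (9.30), and NR5A1 varied little (SD 0.14). INHA and INHBA were near the top of the intensity scale in most follicles, so these sums may understate the differences. None of the 73 cell type markers on the array passed the study's criterion in the stage contrast. With the random block over 8 arrays, which called 673 of 43794 probes, 8 of the 73 did. Without pair 1, where 4.93% of named genes passed, there were 5, the leukocyte markers CD68, CD163, AIF1, TYROBP and LAPTM5, all higher in plateau follicles.

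The summed level of 20 leukocyte markers, 14 of them above background, was 4514 to 5479 in growing follicles and 4423 to 10832 in plateau follicles. It was high in plateau follicles 2 (8674) and 3 (10832) but not in growing follicle 1 (5479). TYROBP, an adaptor of myeloid cells, was at 10.43 and 11.57 in plateau follicles 2 and 3 and between 7.43 and 8.51 elsewhere. CD68, a macrophage lysosomal protein, was at 10.53 and 10.23 there and between 8.04 and 8.58 elsewhere. PTPRC, the pan-leukocyte antigen CD45, stayed between 8.12 and 8.49 in all follicles, and ITGAM, ITGB2 and NKG7 were above background on no reading. The part of these cell types in the levels of the interferon genes was not tested.

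Another 62 genes of interferon production, signalling and response were on the array, 53 of them above background. Of the 62, 40 had ratios above 0 and 22 below (median 0.04), and 1 met the study's criterion, which 1.03% of named genes met. This was BOLA, annotated to the class I heavy chain that pairs with B2M, a polymorphic family with similar copies, so its probe may read several of them. BOLA had 3 probes, of which only the brightest was used, and the values of the others are not given here. The brightest probe met the criterion under every alternative run. All 4 of its pairs were above 0, and the mean log2 ratio was 0.80 ± 0.49 (SD, n = 4; adjusted p = 0.9999 in limma). With the random block over 8 arrays, which called 673 of 43794 probes, 3 of the 62 genes met the criterion. Without pair 1 there were 6, where 4.93% of named genes met it. The 5 interferon genes with a probe, IFNB1, IFNG, IFNW1, IFNT and IFNK, were above background on 0 to 6 of 16 readings.

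IFITM2 and BOLA-DRA had the largest ratios of the 62. IFITM2, which hinders virus entry, was at 13.09, 13.02, 11.90 and 10.62 in growing follicles 1 to 4 and at 12.47, 14.13, 14.26 and 11.52 in plateau follicles 1 to 4, with a ratio of 0.94 ± 1.22 (SD, n = 4). BOLA-DRA, a class II chain of antigen-presenting cells, had a ratio of 0.90 ± 1.49. In both genes the ratios were above 0 in 3 of 4 pairs and the adjusted p in limma was 0.9999. ZNFX1, a helicase of the antiviral response chosen after its values were seen, had a ratio of 0.48 ± 0.15, above 0 in all 4 pairs, with an unadjusted p of 0.004 and an adjusted p of 0.9999 in limma, and it was below the 1.5-fold limit.

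Several of the 53 genes followed the mean of the 18 sensors and effectors over the 8 follicles. Pearson r was 0.95 for PSMB8, a subunit of the immunoproteasome, and 0.94 for UBA7, which activates ISG15 for conjugation. It was 0.91 for IFITM3, a relative of IFITM2, and 0.88 for PLSCR1, a phospholipid scramblase. By r, PSMB8 ranked 6 and PLSCR1 74 among the named genes above background, with the interferon genes left out. The immunoproteasome genes did not follow the mean as a set. Among the antigen processing genes other than PSMB8, r ran from 0.78 for PSMB10 to -0.55 for PSMB9, both also immunoproteasome subunits. The lowest of the 53 genes were APOL3 (-0.80), LGALS3BP (-0.73) and IFI30 (-0.68), 3 genes also known to respond to interferon. Without growing follicle 1 and plateau follicle 2, r was 0.85 for PSMB8, 0.94 for UBA7, 0.93 for IFITM3 and 0.63 for PLSCR1, and it was 0.62 for DTX3L (0.88 with them) and 0.20 for RTP4 (0.82 with them). It was -0.33 for APOL3, 0.16 for LGALS3BP and 0.08 for IFI30.

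Outside the 38 genes, the named genes above background most like that mean were FBXO16 (r = 0.98), CRAMP1 and PARP12 (0.97 each), PSAPL1, NF2, PSMB8, CCL14, NLRC4, LEF1 and DEFB124, with r from 0.949 to 0.978 over the 8 follicles. FBXO16, CRAMP1, PSAPL1, NLRC4 and DEFB124 varied little (SD 0.09 to 0.19). FBXO16, CRAMP1, PSAPL1, NLRC4 and LEF1 were close to background, at mean levels of 7.85 to 8.13. The 10 genes were picked for the highest r among all these genes over only 8 follicles. Their r is therefore a description, and no test was made. PARP12, an ADP-ribosyltransferase, had an SD of 1.35. It was at 12.70, 10.86, 10.56 and 9.71 in growing follicles 1 to 4 and at 10.60, 13.06, 11.99 and 9.33 in plateau follicles 1 to 4. The same 2 follicles were at the top, and the same 2 at the bottom, as in DHX58 and PARP9, and its ratio was 0.29 ± 1.92 (SD, n = 4).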

How the data were processed

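Granulosa cell RNA of 8 follicles was labelled (825 ng for each sample) and hybridised to 8 arrays on 2 slides, where slide and dye orientation coincide. Spot intensity and local background values are scanner output deposited by the authors, with 12 to 30 spots excluded on each array. The log2 ratios in the series table were background-corrected, loess and quantile normalised by the authors, and served as an alternative. They correlated with the ratios used here at r = 0.994 to 0.999, and their medians were -0.027 to -0.003 on the 8 arrays.

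Intensities were corrected with normexp (offset 50) and normalised by loess and quantiles in limma 3.58.1 (R 4.3.3). Of the 43794 probes, 21790 had a gene symbol, 1524 through a synonym in the RefSeq table of ARS-UCD2.0, and 22004 had none. The genome build of the array annotation is not given in the sources used here. Between 56.6% and 79.1% of probes were above the background of 757 negative control spots.

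Arrays at the same position on both slides were taken as the dye swap of a follicle pair, since the deviations of their ratios from the slide means correlated at 0.76 to 0.88, against -0.44 to -0.12 at other positions. Their mean ratio was tested against 0 over 4 pairs by lmFit and eBayes.

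Named with their values were members at the criterion or of 1 sign in all pairs, the 8 with the largest ratio, the 8 with the largest SD and the brightest gene of each group. The members and gene lists were chosen with earlier results of these data known. The alternatives covered background correction, normalisation, block, dye, filter and left-out pairs.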

Additional observations from a re-analysis of the deposited data

Results flagged for a closer look

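In 4 of 42 groups of 4 values tested for the named genes, 1 value lay further from the rest than Dixon's 95% limit for its group, and chance alone passes this limit in about 1 in 20 groups. IFNAR1 was at 11.54 in plateau follicle 2 and between 10.92 and 11.02 in the other plateau follicles. IFNGR2 was at 12.98 in growing follicle 2 and between 11.64 and 11.72 in the other growing follicles. STAT2 was at 10.16 in growing follicle 2, below the 10.40 to 10.44 of the other growing follicles. The log2 ratio of IRF7 was -1.53 in pair 1 and between 1.56 and 1.69 in the other pairs.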

How the results depend on the processing

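The precision is limited by the 4 pairs. When 1 pair was left out, the probes at the criterion numbered 338 to 1538 (1538 without pair 1 and 807 without pair 2), the interferon genes 0 to 4, the pathway genes 1 to 6 and the cell type markers 0 to 5. With follicle pairs as a random replicate block over 8 arrays, 673 probes, 3 pathway genes and 8 markers met the criterion, and with the 8 arrays as independent 714 probes, 3 pathway genes and 8 markers did, 1 probe at an adjusted p under 0.05 in limma. With plateau in Cy5 only the counts were 1049 probes, 2 interferon genes (STAT2 and PARP14), 3 pathway genes and 2 markers. With growing in Cy5 only they were 851 probes, 4 pathway genes and 1 marker. Under median centring 1 interferon gene, STAT2, met it. The cause of these moves was not tested. The median SD of the 32 genes over follicles was 0.83 with loess only and 0.83 with median centring, where levels are not scaled between arrays, and that of all named genes was then 0.74.

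The sign of the mean ratio changed for IFNGR2 with plateau in Cy5 only (-0.059), for PARP9 with growing in Cy5 only (-0.18), and for IFI27 with growing in Cy5 only (0.32) and under median centring (0.075). Leaving out 1 pair gave ranges across 0 for IFNGR1 (-0.29 to 0.43), IFNGR2 (-0.60 to 0.35), ISG15 (-0.55 to 0.999), IFI27 (-0.47 to 0.23), PARP9 (-0.51 to 0.50) and B2M (-0.13 to 0.33). The cause was not tested. The mean ratios of IFNAR1, IFNAR2, STAT2, IRF7, DHX58, IFIT5, USP18 and PARP14 stayed above 0 under each alternative run. The median ratio of the 38 genes stayed above 0 in all of them, between 0.017 without pair 3 and 0.17 without pair 1. Within single pairs, the median of the 32 genes above background was below 0 in pairs 1 and 4. The omission of growing follicle 1 with plateau follicle 2, of the follicles of pair 4 and of plateau follicle 3 was chosen after seeing the data.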
